A study of Drosophila melanogaster with 36 samples.

Results

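A set of 276 Drosophila melanogaster genes carry only a CG number as their symbol in the count data. These genes were almost without reads in untreated unmodified (WT) cells and had reads in WT cells recovering from arsenite. They were chosen from the deposited counts. The symbol consists of CG and digits, the 3 WT control libraries together held at most 3 counts, and the 3 WT recovery libraries averaged at least 0.5 CPM (a read count scaled to the library's total of gene counts). Of 17137 symbols in the tables, 6592 were CG symbols, 3208 of these had at most 3 counts in WT control, and 276 (8.60% of the 3208) also met the recovery limit. The values in WT control and WT recovery chose the genes, so WT values are given here as a description, with no test. The tests use the Rin RNAi, Mock RNAi and Click-iT libraries.

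CG symbols are the numbers that genome annotation gave to predicted genes, and a gene keeps its number until someone names it, so the set has no function in common by definition. The RefSeq annotation gives a name to 16 of the 276. Among these, CG11852, CG5945, CG5867 and CG17279 share a family name, as Jhbp7, Jhbp13, Jhbp14 and Jhbp15. Arsenite is an oxidant poison that binds protein thiols and damages proteins. In fly cells it switches on the heat-shock genes, whose products refold or clear damaged proteins, and it makes cells gather untranslated messenger RNA and proteins into stress granules. rasputin (rin) encodes the fly relative of G3BP, a scaffold protein of these granules.

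All libraries came from S2R+ cells, an embryonic cell line of Drosophila, in 12 groups of 3 replicates (36 libraries). The groups were recovery (0.5 mM sodium arsenite for 3 h, then 3 h in fresh medium), stress (the same arsenite without recovery) and untreated control, each in Rin RNAi cells, Mock RNAi cells, unmodified WT cells and Click-iT captures of total RNA on beads. The labels do not name the target of the Mock RNAi or the steps of the Click-iT capture, and they do not say whether replicates were separate cultures, so p-values measure the spread between these libraries, which may be technical. Each set had 1 control group, so recovery and the further 3 h in culture cannot be told apart. In such bulk RNA, a few cells with much of a transcript and many cells with little cannot be told apart.

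The poly(A) libraries of the WT, Mock and Rin sets held 6121664 to 11211712 gene counts, so 1 count was worth about 0.1 CPM. The Click-iT libraries held 169760 to 2746277 gene counts, and 70.2% to 94.2% of their reads aligned to more than 1 place and were not counted, against 3.88% to 7.51% in the poly(A) libraries. Among the Click-iT libraries, the 276 genes of the library labelled stress replicate 2 stood at the control level (135 CPM summed, against 71.4 to 158 CPM in the control libraries), so counts over Click-iT stress are given with and without it. The targeted gene, rin, had 434, 312 and 227 CPM in Rin control replicates 1, 2 and 3, 282, 180 and 143 CPM in Rin stress and 231, 165 and 137 CPM in Rin recovery, so replicate 1 was the highest and replicate 3 the lowest in each Rin group. In Mock control, stress and recovery it averaged 987, 801 and 759 CPM. Of 10 haemocyte markers (S2 cells are of this lineage), srp, Pxn, crq and peb averaged over 80 CPM in every poly(A) group, while NimC1 averaged at most 0.127 CPM and He at most 1.01 CPM. The 5 gut markers summed to at most 0.714 CPM and the 5 fat body markers to at most 2.38 CPM in any poly(A) library. Of 9 testis and sperm markers, bam averaged 89.9 to 208 CPM and mia 21.4 to 47.7 CPM over the poly(A) groups. There betaTub85D (a testis tubulin) averaged 1.89 CPM in WT recovery, against 0.045 CPM in WT control, and the other 6 averaged at most 0.393 CPM in any poly(A) group. Summed over their lists, testis and sperm markers took 126 to 239 CPM of the poly(A) libraries and neuron markers 27.4 to 68.2 CPM. Muscle markers took 172 to 526 CPM and female germline markers 198 to 349 CPM. These sums rest on few genes. Over the poly(A) groups sls averaged 102 to 399 CPM and Mef2 68.0 to 114 CPM, while Mhc, Act57B, up and Prm averaged at most 2.14 CPM. Of the neuron markers elav averaged 19.2 to 38.7 CPM. The gene bam is in both the testis and the female germline list.

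In WT cells the 276 genes were a small and rising share of the gene counts. Summed, they took 13.9 to 16.9 CPM of the 3 control libraries, 102 to 114 CPM of the 3 stress libraries and 513 to 540 CPM of the 3 recovery libraries. The median gene averaged 0.045 CPM in control, 0.27 CPM in stress and 0.931 CPM in recovery. Stress was higher than control in 242 of the 276 and higher than recovery in 9, and the median gene had 19.9% of its WT recovery level in WT stress. In control 94 genes had 0 counts in all 3 libraries, 78 had 1, 58 had 2 and 46 had 3. Most genes stayed low in recovery too: 148 genes averaged under 1 CPM in WT recovery, 65 at least 2 CPM and 18 at least 5 CPM, and the 12 genes with the most counts held 31.5% of the summed CPM.

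The limits cut through a continuum. Just inside the recovery limit lay CG15725, CG9896 and CG1139, at 0.508, 0.514 and 0.517 CPM (13 counts each in WT recovery). Just outside lay CG14395, CG4465 and CG10950, at 0.493, 0.492 and 0.489 CPM (12 counts each). At 3 control counts, CG32333, CG9129 and CG10298 were inside, and at 4 control counts, CG8093, CG15418 and CG9692 were left out.

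**Figure D1:**
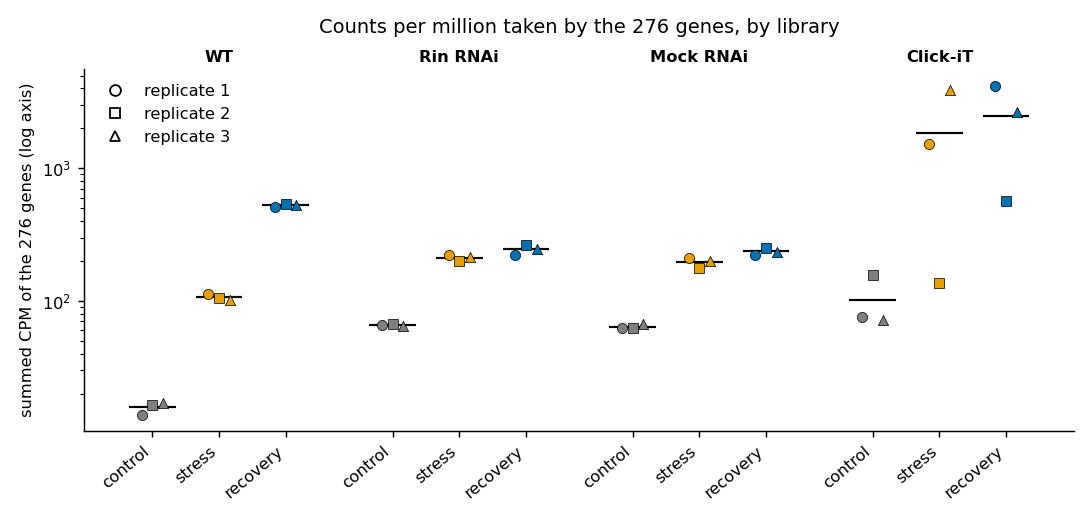
Summed CPM of the 276 genes in each of the 36 libraries, on a log axis. Circles, squares and triangles are replicates 1, 2 and 3 and each bar is the mean of 3 libraries. The WT recovery libraries lie at 513 to 540 CPM, the Rin recovery libraries at 223 to 262 CPM and the Mock recovery libraries at 224 to 253 CPM, while Click-iT stress replicate 2 lies at 135 CPM.

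Among the 12 genes with the most CPM in WT recovery, several encode enzymes that cut peptides. CG31445, an aminopeptidase (an enzyme that removes residues from the amino end of a peptide), lies on arm 3R at 29240580 to 29244827, minus strand, in dm6 coordinates. It had 0 counts in each WT control library, 0.135, 0.251 and 0.602 CPM in WT stress and 21.5, 23.3 and 16.8 CPM in WT recovery. CG18585 and CG7025, metallocarboxypeptidases (zinc enzymes that remove residues from the carboxyl end), lie side by side on 2L at 7689311 to 7691061 and 7691109 to 7692683. CG18585 had 0 counts in each WT control library, 2.70, 2.64 and 1.05 CPM in WT stress and 14.7, 13.8 and 10.5 CPM in WT recovery. CG7025 also had 0 counts in control, with 2.03, 1.51 and 1.36 CPM in WT stress and 11.6, 11.2 and 10.7 CPM in WT recovery. In all 3 genes the stress libraries stood above the control libraries and below the recovery libraries.

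In the RNAi libraries, which did not choose these genes, the peptidase genes were higher in recovery than in control. Their WT recovery levels, which chose them, cannot be set against the RNAi levels. CG31445 had 1.16, 1.97 and 0.905 CPM in Rin recovery, against 0.341, 0.222 and 0.331 CPM in Rin control, which is 2.44 on the log2 scale (SE 0.49, adjusted p 2.51e-05). In Mock it had 1.56, 1.31 and 1.21 CPM in recovery, against 0.212, 0.207 and 0.145 CPM in control, or 2.97 on the log2 scale (SE 0.59, adjusted p 8.08e-06). These adjusted p-values are from edgeR's quasi-likelihood test with Benjamini-Hochberg adjustment over all genes tested, on counts scaled by TMM. For CG18585, 85 counts in Rin recovery stood against 0 in Rin control, at least 27.9-fold higher when control is set to 3 counts over the group, and 22.2-fold by the lower limit of the exact 95% interval, which also allows for the error of the 85 counts. In Mock it had 69 counts in recovery against 4 in control, a ratio after division by total gene counts of 14.5 (95% interval of counting, 5.41 to 54.7). CG7025 had 57 counts in Rin recovery against 2 in Rin control, a ratio of 28.0 (7.41 to 237), and 56 in Mock recovery against 0 in Mock control, at least 15.7-fold higher with control at 3 counts (exact lower limit 12.3). The intervals cover the error of counting and no other, and a ratio with control at 3 counts leaves out the error of the recovery count.

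CG17109 encodes an aminoacylase-like enzyme (aminoacylases free amino acids from their acyl groups) and lies on 3R at 23095690 to 23097240 in a row of 4 related genes. It had 0.163, 0 and 0 CPM in WT control, 0.406, 0.126 and 0.903 CPM in WT stress and 11.1, 10.2 and 10.1 CPM in WT recovery. It had 66 counts in Rin recovery against 2 in Rin control, a ratio of 32.5 (8.63 to 274), and 49 in Mock recovery against 3 in Mock control, a ratio of 13.7 (4.43 to 68.8). The other 3 genes of the row, CG17110, CG6733 and CG6738, averaged 0.992, 2.45 and 1.99 CPM in WT recovery, which was part of the rule. They averaged at most 0.427 CPM in Rin recovery and 0.255 CPM in Mock recovery.

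CG4461, a small heat-shock protein of the alpha-crystallin family, lies on 3L at 9375430 to 9376293. It had 0, 0.135 and 0.135 CPM in WT control, 0.406, 0.627 and 0.151 CPM in WT stress and 9.73, 11.4 and 10.7 CPM in WT recovery. It rose by 3.05 (log2, SE 0.54, adjusted p 2.28e-06 by edgeR with Benjamini-Hochberg adjustment) in Rin recovery, where it had 1.48, 3.06 and 2.59 CPM, against 0.227, 0.222 and 0.552 CPM in Rin control. In Mock it had 3.91, 2.51 and 2.41 CPM in recovery, against 0.423, 0.517 and 0.29 CPM in control (log2 fold change 3.00, SE 0.49). The small heat-shock gene Hsp26, on the opposite strand, ends 124 bases from CG4461. Hsp26 itself averaged 2070 CPM in Mock recovery, against 143 CPM in Mock control (log2 fold change 4.09, SE 0.08). The library kit does not mark strand and the strand setting of the counting is not given in the sources used here, so reads running on from Hsp26 and reads of CG4461 cannot be told apart.

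The remaining 7 of the 12 have no role stated here. CG1632, on X at 8252670 to 8272462, had the most counts, with 0, 0 and 0.135 CPM in WT control, 0.406, 0.126 and 0.753 CPM in WT stress and 25.2, 28.7 and 23.9 CPM in WT recovery. It had 4.33, 5.82 and 4.79 CPM in Rin recovery, against 0.227, 0.111 and 0.11 CPM in Rin control (log2 fold change 5.22, SE 0.69, adjusted p 1.78e-10 by edgeR's quasi-likelihood test), and 4.20, 5.72 and 4.27 CPM in Mock recovery, against 0.318, 0.31 and 0.145 CPM in Mock control (4.30, SE 0.53, adjusted p 8.96e-10, by the same edgeR test). Its recovery and control libraries did not overlap in any of these sets. The gene Corp, which overlaps CG1632, averaged 7.73 CPM in Mock recovery, against 2.26 CPM in Mock control. CG13992, on 2L at 5965391 to 5967752, averaged 0.144, 1.89 and 22.0 CPM in WT control, stress and recovery. It was higher by 4.36 (log2, SE 0.64) in Rin recovery and by 3.39 (SE 0.51) in Mock recovery than in their controls.

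Per kb of exon, the order among the 12 differed from that by counts. CG16813, a short gene on 2L with 902 exonic bases, had the highest level of the 275 placed genes, at 14.4 CPM per kb in WT recovery, while CG1632, with 4268 exonic bases, had 6.07 CPM per kb. CG16813 had 111 counts in Rin recovery against 3 in Rin control (ratio 36.4, 12.1 to 179) and 128 in Mock recovery against 2 in Mock control (ratio 53.8, 14.6 to 449). CG14960 had 65 counts in Rin recovery against 4 in Rin control (ratio 16.0, 5.95 to 60.4) and 80 against 1 in Mock (ratio 67.2, 11.7 to 2687). CG12009 had 32 counts in Rin recovery against 0 in Rin control, at least 10.5-fold higher with control at 3 counts (exact lower limit 8.05), and 45 against 1 in Mock (ratio 37.8, 6.45 to 1526). CG18788 had the highest control levels of the 12 in the RNAi sets, at 1.05 CPM in Rin control and 1.53 CPM in Mock control, and rose by 1.45 (log2, SE 0.37) in Rin recovery and 0.97 (SE 0.33) in Mock recovery. CG15005 was left out of the RNAi fit by the filter on low counts. It had 20 counts in Rin recovery against 0 in Rin control, at least 6.56-fold higher with control at 3 counts (exact lower limit 4.85), and 39 against 2 in Mock (ratio 16.4, 4.24 to 140).

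**Figure D2:**
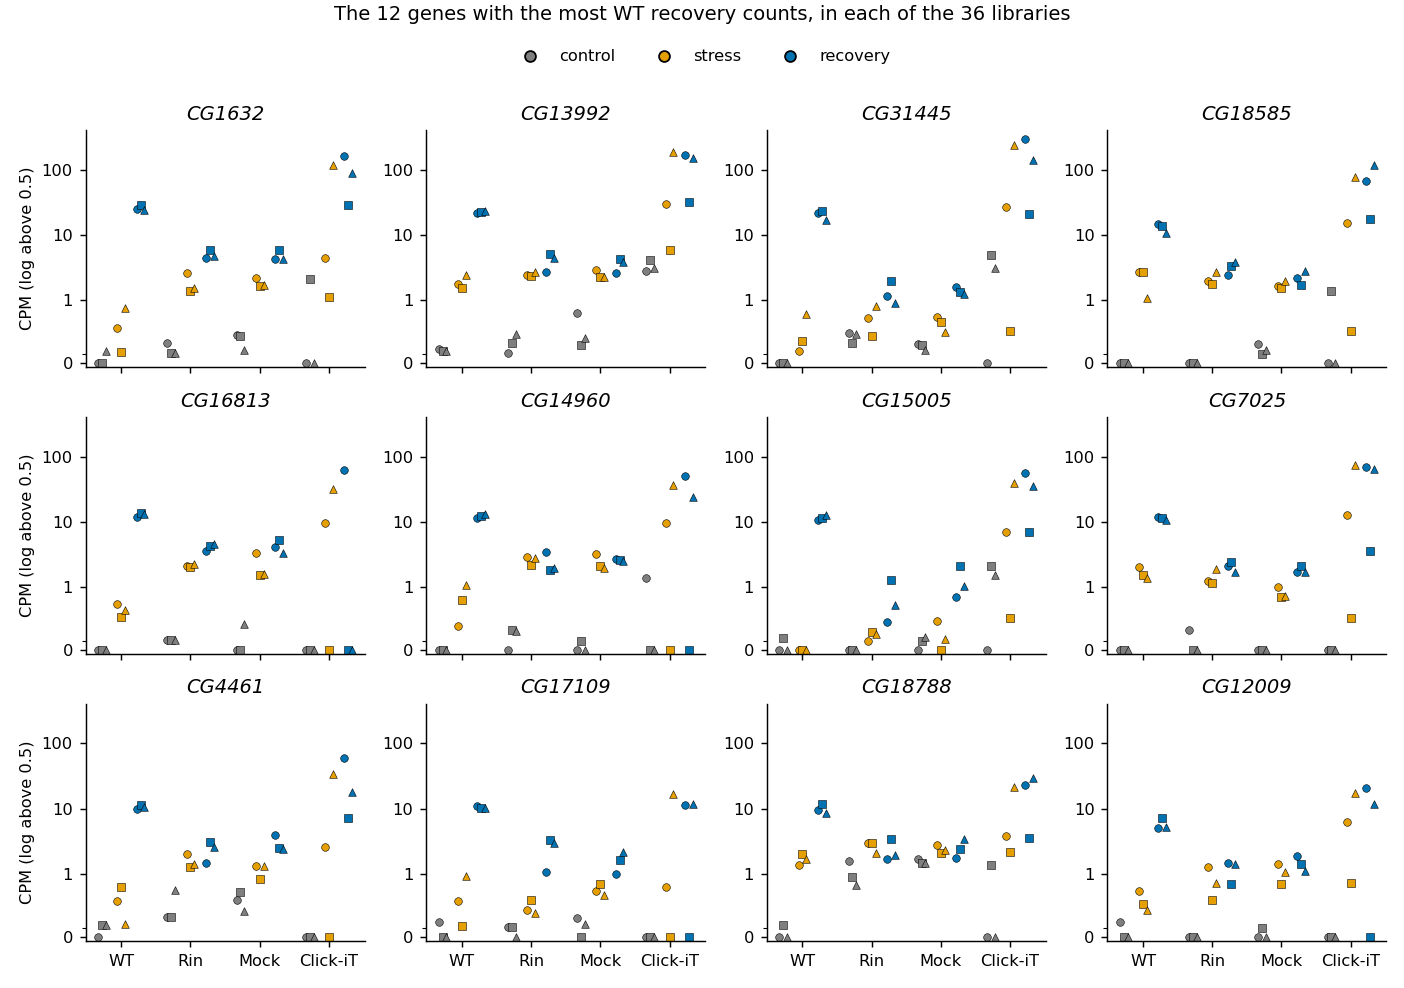
CPM of the 12 genes with the most counts in WT recovery, in each of the 36 libraries (linear below 0.5 CPM and log above). Columns are the WT, Rin, Mock and Click-iT sets, colours are the treatments, and circles, squares and triangles are replicates 1, 2 and 3. Recovery libraries of CG1632 lie at 23.9 to 28.7 CPM in WT, at 4.33 to 5.82 CPM in Rin and at 4.20 to 5.72 CPM in Mock.

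Across all 276 genes, most were also higher after arsenite in the RNAi cells. The rule took genes that were low in WT control and high in WT recovery, so the WT distance between control and recovery cannot be set against that of another set. The part of the rule in the smaller distance of the RNAi sets was not tested. Summed, the genes took 223 to 262 CPM in Rin recovery, 199 to 221 CPM in Rin stress and 64.4 to 67.0 CPM in Rin control. The Mock libraries stood at 224 to 253 CPM in recovery, 177 to 211 CPM in stress and 62.4 to 66.8 CPM in control. The mean was higher in recovery than in control in 257 of 276 genes in Rin and in 257 of 276 in Mock. No background over all symbols is given for these counts of means. In Rin control 44 of the genes had 0 counts and in Mock control 51, so their means could not fall. All 3 recovery libraries lay above all 3 control libraries in 160 genes in Rin (58.0%, against 18.1% of the 13367 symbols with a count in those libraries) and in 165 genes in Mock (59.8%, against 17.7% of 13460), and 126 did so in both. In stress the counts were 140 genes in Rin (background 18.1%) and 127 in Mock (background 16.2%). All 3 recovery libraries lay below all 3 control libraries in 3 genes in Rin (background 36.1%) and 2 in Mock (34.5%), and all 3 stress libraries did so in 4 genes in Rin (32.8%) and 4 in Mock (30.0%). A gene can lie below only with a count in every control library. At most 3 counts over the group stood in Rin control for 148 of the 276 and in Mock control for 155. Many of the genes could therefore hardly lie below, and these low counts are no result about them. Haemocyte markers fell in sum over the same libraries. Their 10 genes summed to 656 to 762 CPM in Rin recovery, against 1370 to 1445 CPM in Rin control, and to 760 to 802 CPM in Mock recovery, against 1306 to 1408 CPM in Mock control. Within the list srp averaged 202 CPM in Mock recovery, against 444 CPM in Mock control, while peb averaged 159 CPM, against 82.3 CPM. The part of this in the results was not tested.

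In the test across all genes, 92 of the 276 passed the filter on low counts and 184 did not. The filter keeps a gene that has enough counts in some group, so a gene silent in control could pass only through the groups where it was high, and the counts among the 92 are a description of those genes, not of the 276. Of the 92, 77 were higher in Rin recovery than in Rin control and 0 lower (35.2% of the 8707 genes tested were higher and 34.3% lower), and 76 were higher in Mock recovery than in Mock control and 0 lower (33.1% and 32.8%). In stress 76 were higher in Rin and 0 lower (30.4% and 30.8% of all genes), and 70 were higher in Mock and 1 lower (29.0% and 29.8%). All 4 comparisons called 64 of the 92 higher, a count given without its share over all genes. Fits of only the 2 groups compared called 38 of 44 tested genes higher in Rin recovery (36.2% of all genes), 49 of 57 in Mock recovery (33.4%), 41 of 48 in Rin stress (33.1%) and 31 of 39 in Mock stress (25.8%), and DESeq2 called 139 higher and 1 lower in Rin recovery (25.6% and 24.6% of genes with an adjusted p) and 128 and 0 in Mock recovery (24.3% and 23.0%). A fit with no filter reached all 276 genes and called 158 higher and 1 lower in Rin recovery (22.8% of 14514 genes higher) and 155 higher and 0 lower in Mock recovery (21.8%). The split of all genes depended on the scaling. With total gene counts only, the median gene shifted to -0.25 (log2) in Rin recovery and to -0.23 in Mock recovery, against 0.03 and 0.01 with TMM, and 20.8% and 20% of all genes were higher and 50.3% and 49% lower. Of the 92 genes, 74 and 70 were then higher and 0 lower. In stress this scaling moved the median gene to -0.16 in both RNAi sets, with 20.1% of all genes higher and 43.6% lower in Rin and 19.4% and 43.3% in Mock, and with 73 of the 92 higher and 0 lower in Rin and 66 and 1 in Mock. CPM values and count ratios here use total gene counts, while fitted log2 fold changes use TMM.

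A further 258 symbols with a name in place of a CG number met the same limits. All 3 recovery libraries lay above all 3 control libraries in 152 of them in Rin and in 157 in Mock. Of the 92 of these that passed the filter, 84 were higher in Rin recovery and 79 in Mock recovery, with 0 lower in either. Among 3024 tested CG symbols with over 3 counts in WT control, 958 were higher and 970 lower in Rin recovery, and 864 were higher and 951 lower in Mock recovery. Of 15 inducible heat-shock genes 12 were tested, and all 12 were higher in Rin and in Mock recovery, with medians of 3.12 and 3.09 (log2).

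**Figure D3:**
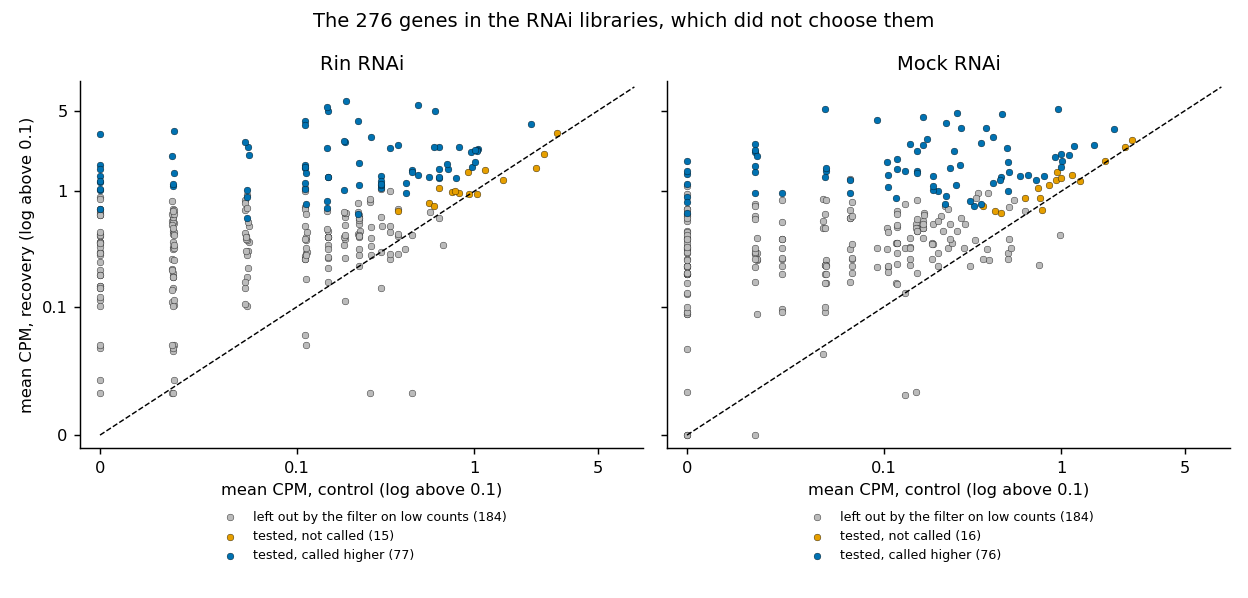
Mean CPM in recovery (vertical) against control (horizontal) for the 276 genes in Rin cells (left) and Mock cells (right), each point a gene and the dashed line equality. Blue points were tested and called higher (77 in Rin, 76 in Mock), orange points tested and not called, and grey points (184) were left out by the filter on low counts.

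The same limits were also applied to each set's own libraries. In WT all 276 meet them by the rule, so another set could not pick more of these genes. With at most 3 counts in the set's own control and at least 0.5 CPM in its own recovery, 60 of the 276 met the rule in Rin (21.7%, against 0.934% of all symbols) and 57 in Mock (20.7%, against 0.916%), and 41 met it in Rin, Mock and WT. All symbols, unlike the 276, were not chosen as silent in WT control and present in WT recovery, so these shares are a description. In Rin control 148 genes had at most 3 counts and in Mock control 155. In Rin recovery 145 genes reached 0.5 CPM and in Mock recovery 141. The order of levels across the 276 genes was similar in Rin and Mock recovery (Spearman's rho 0.906) and less so between Mock and WT recovery (rho 0.463). These are descriptions across genes that share libraries, and the WT levels were used by the rule.

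Many of the genes were over the limit of 3 control counts in the RNAi cells to begin with. CG13482, which lies inside the gene fz on the same strand, had 2.95, 1.89 and 2.54 CPM in Rin control and 2.43, 2.90 and 2.17 CPM in Mock control, against 0, 0 and 0.403 CPM in WT control. Its recovery levels, 2.22, 2.07 and 2.07 CPM in Rin and 2.83, 2.91 and 2.60 CPM in Mock, did not pass the test against control. In Mock stress it had 0.659, 1.52 and 1.79 CPM and was called lower than control (log2 fold change -0.78, SE 0.33, adjusted p 0.0402 by the edgeR quasi-likelihood test). CG9686 had 2.95, 3.00 and 2.87 CPM in Rin control and 2.75, 2.38 and 1.74 CPM in Mock control, against 0.045 CPM on average in WT control, and differed from control by 0.41 (log2, SE 0.20) in Rin recovery and 0.29 (SE 0.22) in Mock recovery, neither past the threshold. CG7675 had 2.08 CPM in Rin control and 1.99 CPM in Mock control and rose by 1.17 (SE 0.29) and 1.07 (SE 0.30) in recovery. CG12541, at 1.15 CPM in Rin control and 1.77 CPM in Mock control, had log2 differences of 0.69 (SE 0.32) and 0.33 (SE 0.27), short of the threshold. WT and RNAi cells were not compared by a test, since they form separate sets of libraries. Haemocyte markers also differed between the sets, with Pxn at 618 CPM in Mock control and 4004 CPM in WT control and Hml at 15.1 CPM and 319 CPM, and the part of such differences in these levels was not tested.

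At the other end, 18 genes had at most 3 counts over the 3 Mock recovery libraries. Of these, CG6738 had the most in WT recovery, at 2.24, 1.78 and 1.94 CPM, and had 8 counts in Rin recovery and 3 in Mock recovery. CG12420 had 2.24, 0.833 and 1.03 CPM in WT recovery, with 3 counts in Rin recovery and 0 in the 3 Mock recovery libraries, which allows up to 3 counts over the group. CG13272 had 0.783, 1.31 and 1.16 CPM in WT recovery and 3 counts in each of Rin and Mock recovery. CG32506 had 1.01, 1.07 and 1.16 CPM in WT recovery, with 10 counts in Rin recovery and 3 in Mock recovery.

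Rin RNAi was compared with Mock RNAi to ask whether the response of these genes depends on rin. No difference passed the threshold among the 92 tested genes in control, stress or recovery, nor in the difference between the Rin and Mock recovery responses. By edgeR's quasi-likelihood test 0 of 92 were called in each, while 8, 8, 2 and 5 had an unadjusted p under 0.05, against 7.45%, 8.48%, 11.5% and 8.72% of all 8707 genes. DESeq2 called 0 in each. With no filter on low counts edgeR called 1 of 276 in control, where 32 of all 14514 genes were higher and 26 lower. Of all 8707 genes, 0.023%, 0.0919% and 0.0689% were called higher in Rin in control, stress and recovery, 0.023%, 0.0689% and 0.0574% lower, and 0.0% in the difference of responses. In recovery CG1632 differed by 0.10 (log2, Rin over Mock, SE 0.18), CG13992 by 0.21 (SE 0.23), CG31445 by 0.05 (SE 0.29), CG4461 by -0.29 (SE 0.26) and CG17109 by 0.62 (SE 0.34). The count ratio of Rin to Mock recovery was 1.06 for CG1632 (95% interval 0.836 to 1.35) and 1.02 for CG31445 (0.643 to 1.63), and differences inside such intervals were not detectable at this depth. Over all 276 genes, all 3 Rin libraries lay above all 3 Mock libraries in 16 genes in recovery (background 6.32%) and below in 15 (9.24%), in 21 and 12 in stress (6.24% and 4.02%), and in 20 and 9 in control (8.85% and 4.27%). The rin transcript was lowered and not absent, and stress granules were not measured in these files.

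In the RNAi cells the median gene had 82.3% of its recovery level in stress in Rin and 80.8% in Mock. In WT it had 19.9%, a value that cannot be set against these, since a high WT recovery level was part of the rule. Recovery was called higher than stress in 13 of 92 genes in Rin (14.2% of all genes tested) and lower in 1 (16.2%), and in Mock in 11 (5.02%) and 0 (4.31%). Over all 276 genes, the 3 recovery libraries lay above the 3 stress libraries in 41 genes in Rin (background 8.83%) and in 47 in Mock (6.26%), and below them in 10 (24.4%) and 7 (13.6%). In Mock the count of called genes was 5 without any 1 of stress replicate 3, recovery replicate 1 or recovery replicate 2 and 7 without stress replicate 1 (1.82% to 2.56% of all genes higher in these fits), and in Rin it was 7 without recovery replicate 2 and 8 without stress replicate 1 (12.6% and 11.0%). DESeq2 called 3 genes higher in Rin and 0 in Mock (13.4% and 5.57% of genes with an adjusted p). With total gene counts only, 6.8% of all genes were higher and 29.5% lower in Rin and 3.11% and 13.4% in Mock, and of the 92 genes 9 were higher and 1 lower in Rin and 11 and 0 in Mock.

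The largest fitted log2 differences between Mock recovery and Mock stress, among tested genes with at least 1 CPM in Mock recovery, were in CG31087, CG31445 and CG17109. CG31087, an ecdysteroid kinase-like gene, had 1.56, 1.51 and 1.39 CPM in Mock recovery, against 0.22, 0.233 and 0.119 CPM in Mock stress (log2 fold change 2.95, adjusted p 0.000623 by edgeR's quasi-likelihood test). In Rin it had 1.06, 1.38 and 1.03 CPM in recovery, against 0.414, 0.417 and 0.803 CPM in stress (adjusted p 0.022 by the same edgeR test with Benjamini-Hochberg adjustment). CG31445 was higher in recovery than in stress by 1.41 (SE 0.37) in Rin and 1.61 (SE 0.41) in Mock, and CG17109 by 2.94 (SE 0.59) and 1.51 (SE 0.52). CG15005, which the filter left out, had 39 counts in Mock recovery against 4 in Mock stress (ratio 8.21, 2.96 to 31.6). The smallest fitted differences were in CG12011, CG7714 and CG17270, at -0.48 (SE 0.26), -0.41 (SE 0.31) and -0.31 (SE 0.33) in Mock, none past the threshold. CG11852, listed as Jhbp7 (a juvenile hormone binding protein family name) in the RefSeq table, was the 1 gene called lower in recovery than in stress, in Rin, with 1.37, 0.987 and 1.55 CPM in recovery, against 2.48, 2.08 and 2.85 CPM in stress (log2 fold change -0.84, SE 0.29, adjusted p 0.0284 by edgeR's quasi-likelihood test).

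In WT, CG43179, CG7715, CG12011 and CG17570 had more CPM in stress than in recovery by the largest ratios. CG43179 had 0 counts in WT control, 0.946, 0.627 and 0.753 CPM in WT stress and 0.224, 0.833 and 0.517 CPM in WT recovery, with overlapping stress and recovery libraries. CG7715 had 0 counts in WT control, 0.811, 0.878 and 0.753 CPM in WT stress and 0.447, 0.833 and 0.517 CPM in WT recovery. It lies with CG7714 inside ChAT, on the opposite strand, and had 32 counts in Rin recovery against 3 in Rin control (ratio 10.5, 3.28 to 53.5) and 30 in Mock recovery against 2 in Mock control (ratio 12.6, 3.20 to 109). CG12011 rose in stress, by 1.48 (log2, SE 0.33) in Rin and 1.55 (SE 0.32) in Mock. CG17570 was at 1.25 CPM in Rin recovery, against 1.45 CPM in Rin control, and 1.06 CPM in Mock recovery, against 0.741 CPM in Mock control, with no change past the threshold.

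The Click-iT captures gave the 276 genes the highest mean summed CPM in stress and recovery and the widest spread. CPM are shares of gene counts, and most Click-iT reads were not counted, so these are not shares of all reads. Summed, the genes took 4194, 569 and 2663 CPM in the 3 recovery libraries and 1516, 135 and 3866 CPM in the 3 stress libraries, against 71.4 to 158 CPM in the control libraries. In these shallow recovery libraries 1 count was worth 2.26 to 5.89 CPM. The mean was higher in recovery than in control in 234 genes, and in stress than in control in 273. In Click-iT control 171 of the 276 genes had 0 counts, so their means could not fall. Counts of higher means have no background over all symbols here. All 3 libraries lay above all 3 control libraries in 52 genes in recovery (background 8.33%) and in 59 in stress (9.65%), and below in 0 genes (13.5% and 2.64%). At most 3 counts over the Click-iT control group stood for 251 of the 276, so few could lie below in any comparison with control. Without stress replicate 2, the stress mean was higher than control in 271 genes, and both remaining stress libraries lay above all 3 control libraries in 213 (background 26.6%) and below in 0 (13.2%). That library was left out for its low values of these same genes, so these counts are a description. CG31445 had 297, 21.1 and 141 CPM in Click-iT recovery and 27.1, 0.364 and 237 CPM in stress, against 0, 4.82 and 3.04 CPM in control. CG13992 had 170, 31.6 and 153 CPM in recovery, against 2.72, 4.13 and 3.04 CPM in control, with no overlap. CG1632 and CG5071 followed, at 163, 28.1 and 88.4 CPM and at 154, 31.6 and 94.3 CPM in recovery, against at most 2.07 CPM in any control library.

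By edgeR's quasi-likelihood test 0 of 6558 genes, and so 0 of the 46 tested among the 276, passed an adjusted p of 0.05 in Click-iT recovery or stress (background 0.0%). The spread between replicates was 42.8% as the biological coefficient of variation, against 6.49% in the RNAi fit. At an unadjusted p under 0.05 stood 43 of the 46 in recovery and 39 in stress, against 22.1% and 15.0% of all 6558 genes, but the 46 are genes that the filter on low counts kept, most of which could pass only through the arsenite libraries. In recovery DESeq2 called 37 genes higher (5.59% of genes with an adjusted p), edgeR with no filter on low counts 74 (5.66%) and limma voom with sample weights, added after the data were examined, 5 (6.5%). In stress the same tests called 17 (1.65%), 65 (4.77%) and 0 (9.84%). Without the library labelled stress replicate 2, edgeR called 24 of 71 tested genes higher in stress (4.41% of all genes), DESeq2 68 (8.36%), edgeR with no filter 122 (9.05%) and limma voom 41 (10.2%), and 68 of the 71 had an unadjusted p under 0.05, against 23.3% of all genes. All but the first of these 4 counts were added after the data were examined. That library was left out for its low values of these same genes. The calls and p-values without it are therefore a description, and the 71 are again genes that passed a filter on low counts.

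In the annotation, 275 of the 276 genes could be placed, all of them protein-coding, with a median exonic length of 1724 bases (270 to 8896). They lay on X (36), 2L (55), 2R (41), 3L (60) and 3R (83). The genes were often downstream of another gene on the same strand. For 211 (76.7%) the nearest upstream gene on that strand ended within 5 kb, against 58.9% of the 455 CG genes silent in WT control that had at least 4 counts in WT recovery but stayed under the limit, and 66.3% of CG genes with over 3 counts in WT control. That upstream gene was itself called higher in Mock recovery for 72 of the 275 (26.2%), against 9.01% of the 455 and 16.5% of the CG genes over 3 counts. It met both count limits of the rule itself for 60 (21.8%), against 4.18% and 1.36%. These shares are descriptions, and WT recovery values entered both the choice of the genes and the comparison sets.

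**Figure D4:**
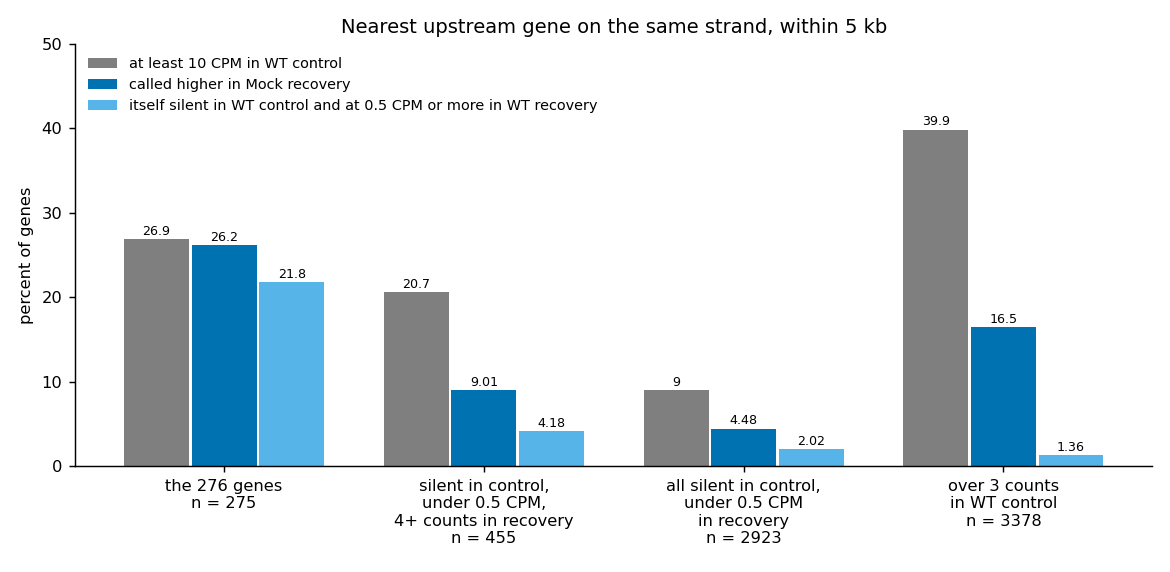
Share of genes whose nearest upstream gene on the same strand, within 5 kb, had at least 10 CPM in WT control (grey), was called higher in Mock recovery (dark blue) or itself met both count limits (light blue). The 4 sets run from the 276 genes (275 placed) to CG genes with over 3 counts in WT control, and the dark blue bars stand at 26.2%, 9.01%, 4.48% and 16.5%.

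Some neighbours of the leading genes rose in Mock recovery too. SP1029, an aminopeptidase gene which ends 133 bases upstream of CG31445 on the same strand, averaged 32.3 CPM in Mock recovery, against 0.367 CPM in Mock control (log2 fold change 6.72, SE 0.73). CG7025 ends 47 bases upstream of CG18585, and Tep2, a gene of the complement-like thioester proteins, ends 1043 bases upstream of CG7025 and rose by 0.93 (log2, SE 0.12) in Mock recovery. asRNA:CR43465 ends 2106 bases upstream of CG13992 and rose by 4.99 (log2, SE 0.47). Corp, which overlaps CG1632, rose by 2.01 (log2, SE 0.25), and Cow, which overlaps CG17109, by 0.78 (SE 0.31). Not all neighbours moved with the gene. CG16812, 2983 bases upstream of CG16813, stood at 64.2 CPM in Mock recovery, against 76.0 CPM in Mock control (log2 fold change 0.00, SE 0.06). dmGlut, 67 bases upstream of CG18788, stood at 31.0 CPM, against 36.6 CPM (log2 fold change 0.00, SE 0.08). Myo28B1, which overlaps exons of CG18585 on the opposite strand, was lower in Mock recovery (log2 fold change -1.40, SE 0.25). In counts of this kind, reads running on from an upstream gene and reads started at the gene itself cannot be told apart.

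Of the 275 genes, 86 (31.3%) overlapped another gene, against 40.4% of the 455 silent genes under the limit, and 30 (10.9%) lay wholly inside one, against 17.8%. For 137 genes an expressed gene (at least 10 CPM in WT control) overlapped or ended toward the gene within 5 kb, and for 138 none did. All 3 Rin recovery libraries lay above all 3 Rin control libraries in 76 of the 137 (55.5%) and 83 of the 138 (60.1%), and in Mock in 80 (58.4%) and 84 (60.9%). The part of neighbours farther than 5 kb was not tested. The share of reads that fell in no annotated gene was 10.9% to 12.3% in Rin recovery, against 8.08% to 9.21% in Rin control, and 10.5% to 11.8% in Mock recovery, against 7.86% to 8.42% in Mock control. In WT recovery it was 8.65% to 8.89%, against 8.36% to 8.62% in WT control. Its part in the results was not tested.

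The genes also lay beside each other. In the gene order 77 of them formed 30 runs of 2 to 5 adjacent members over 1.08 to 30.5 kb, 28 of the runs with all genes on 1 strand. Next to another symbol that met both limits lay 94. These counts have no comparison set here, so adjacency cannot be called particular to these genes. The run with the most reads, CG34265, CG14960, CG12017 and CG12009 on 3L at 3268461 to 3299000, summed to 24.8 CPM in WT recovery and to 5.62 CPM in Mock recovery, against 0.353 CPM in Mock control. The carboxypeptidase pair CG18585 and CG7025 summed to 4.03 CPM in Mock recovery, against 0.153 CPM in Mock control. CG15480, CG16813 and CG16815 on 2L summed to 5.96 CPM, against 0.097 CPM, of which CG15480, on the other strand, had 12 counts against 0. The aminoacylase-like row on 3R summed to 2.12 CPM in Mock recovery, against 0.154 CPM in Mock control.

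A cluster of ecdysteroid kinase-like genes on 3R, chosen for description after its values were seen, held 10 of the genes. These genes form a family that is named for an enzyme that adds phosphate to steroid hormones in insects. The cluster has 26 genes over 61.0 kb. CG11889 and CG11891, on the plus strand, have the same start and end in the annotation, so reads of either could be ambiguous to the counting, and both had 0 counts in every group. On the minus strand 11 of 15 genes were silent in WT control, and 10 of these 11 met the rule, the other, CG31099, having 0.475 CPM in WT recovery. On the plus strand, leaving out CG11889 and CG11891, 6 of 9 were silent in WT control, and 0 met the rule, with at most 0.276 CPM in WT recovery and 0.416 CPM in Mock recovery. The highest of these, CG11893, had 0.536 CPM in Rin recovery and 0.856 CPM in Rin stress, while CG10513 of the minus strand, which met the rule, had 0.296 and 0.168 CPM. The run of 5 adjacent members lies downstream of CHKov1, which was expressed at 54.9 CPM in Mock recovery and 60.4 CPM in Mock control. From CHKov1 onwards, CG10562 had 2.29 CPM in Mock recovery, against 0.034 CPM in Mock control, CG10560 1.91 against 0.118 CPM, CG10553 1.37 against 0.106 CPM, CG10559 1.13 against 0.256 CPM and CG31087 1.49 against 0 CPM. Per kb of exon these 5 lay between 0.786 and 1.50 CPM in Mock recovery, against 37.5 CPM for CHKov1. Of the other expressed genes of the minus strand, CG10550 averaged 136 CPM in Mock recovery, against 64.6 CPM in Mock control. In Rin it averaged 142 CPM in recovery, against 62.8 CPM in control. CG31098 stood at 21.1 against 22.5 CPM and CHKov2 at 33.1 against 30.1 CPM in Mock. The strand of the reads was not recorded, so the strand named here is that of the gene models.

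**Figure D5:**
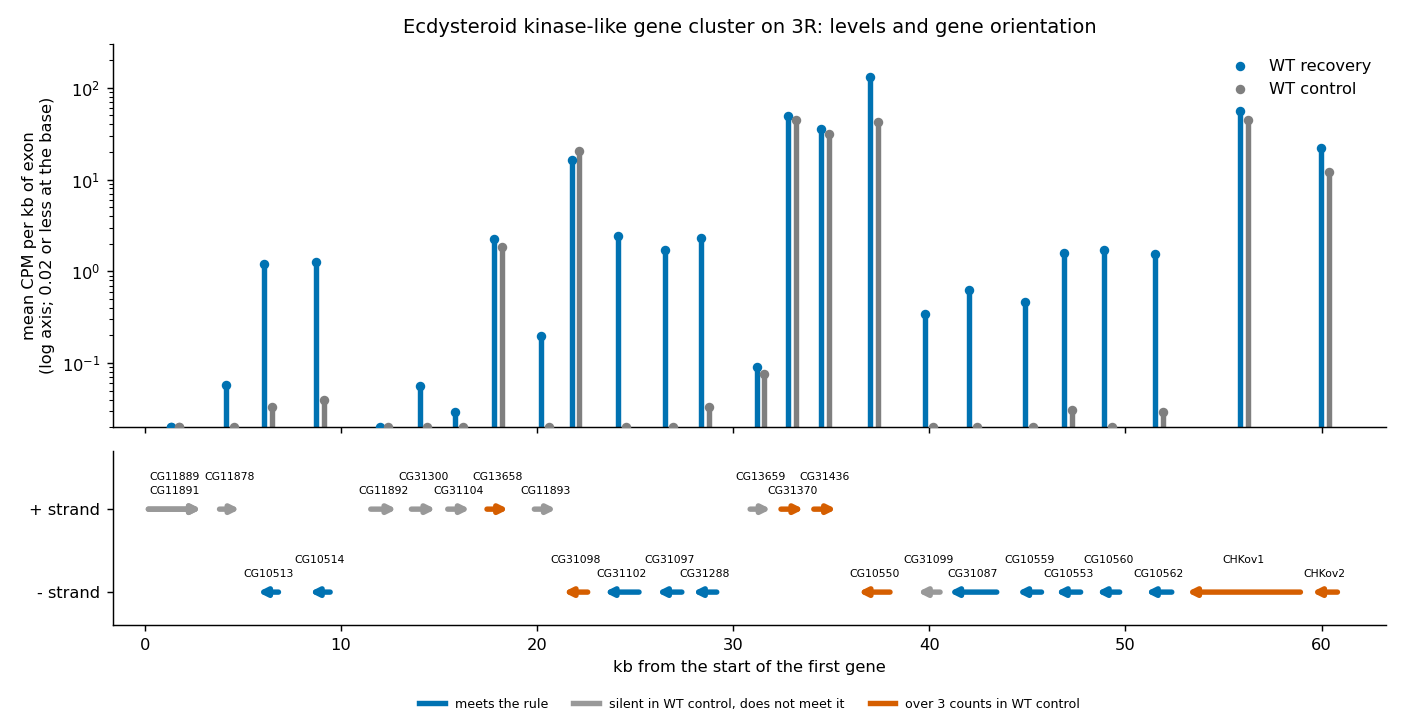
Mean CPM per kb of exon in WT recovery (blue) and WT control (grey), on a log axis, for the 26 ecdysteroid kinase-like genes on 3R, above their gene models by strand, in kb from the first gene. The 10 genes that met the rule (blue arrows) all lie on the minus strand, and the silent genes of the plus strand had at most 0.276 CPM in WT recovery.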

How the data were processed

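The deposited per-library files hold raw read counts for 17137 gene symbols and 5 summary lines, which were left out of totals and tests. The reads were aligned with STAR 2.5.3 to dm6 and counted with HTSeq, per the submitters' processing notes; the counting mode and strand setting are not given in the sources used here. Per the labels' protocols, reads were 50-base single-end reads of TruSeq libraries. The authors' deposited DESeq2 tables were not used here.

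From the counts, CPM were computed on gene counts. The 18 Rin and Mock libraries and the 9 Click-iT libraries were each fitted on group means with edgeR 4.0.16 (R 4.3.3, quasi-likelihood, TMM, filterByExpr), with 0.9145 to 1.1143 and 0.7717 to 1.2749 as TMM factors. Calls were made where the p, adjusted by Benjamini-Hochberg over 8707 and 6558 genes, was under 0.05 (two-sided). A background of libraries that do not overlap was counted over symbols with a count. Ratios of counts carry exact 95% intervals. The procedure was tested on simulated data.

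Positions came from the Ensembl annotation of BDGP6 (dm6 coordinates), which matched 98.2% of symbols; 16 genes were placed through the RefSeq table and CG12688 was not. A neighbour counted within 5 kb and as expressed at 10 CPM or more in WT control. Genes were named by fixed rules (the 12 highest in WT recovery, those at the limits, the highest in Mock control, the extremes of the fitted recovery against stress, those with at most 3 counts in Mock recovery, the highest in Click-iT, those called lower, the largest runs, and neighbours of the 12). The genes and lists were chosen with earlier results of these data known. Replicate numbers were not taken to pair libraries: no pair of groups had every same-number correlation over 0.1 (-0.305 to 0.233 in the RNAi sets). Promoter sequences were not used here. Alternatives were other scalings, filters, tests, count limits, a block for replicate number, and the loss of each library in turn (DESeq2 1.42.0, limma 3.58.1).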

Additional observations from a re-analysis of the deposited data

How the results depend on the processing

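The number of members moved with the limits of the rule, to 94 at 0 control counts, 500 at up to 10, 464 at 0.25 CPM and 128 at 1 CPM. It was 292 with TMM-scaled CPM and 271 to 353 when 1 WT library was left out. Among called genes, no filter on low counts gave 155 in Mock recovery, 119 in Mock stress, 159 in Rin recovery, 126 in Rin stress, 1 in Rin against Mock in control, 74 in Click-iT recovery and 65 in Click-iT stress. Of all 14514 genes in the RNAi fit with no filter, 3169 were higher and 2900 lower in Mock recovery and 2687 and 2643 in Mock stress. In Rin these were 3312 and 3044 in recovery and 2745 and 2764 in stress. A fit of only the groups compared, with fewer libraries, gave 49, 31, 38 and 41 in the same 4 RNAi comparisons with control, 9 in Rin and 2 in Mock recovery against stress, and 4 in Click-iT recovery. DESeq2 gave 128 in Mock recovery, 140 in Rin recovery, 3 in Rin and 0 in Mock recovery against stress, and 37 and 17 in Click-iT recovery and stress. A log2 fold change of at least 1 left 8 in Rin recovery against stress, and limma voom, added later, called 5 in Click-iT recovery. Without Click-iT stress replicate 2, also added later, no filter gave 122, DESeq2 68 and limma voom 41 in Click-iT stress. That replicate was left out because of its values for these same genes. The cause of these shifts was not tested beyond the number of genes and libraries entered. Leaving out 1 library gave 80 to 88 in Rin recovery, 78 to 81 in Rin stress, 75 to 83 in Mock recovery, 68 to 76 in Mock stress, 7 to 15 and 5 to 15 in Rin and Mock recovery against stress, 0 to 24 in Click-iT stress and 0 in each other comparison. The number tested and the share over all genes are not given for these ranges. They show only how far the number called moved.

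With the replicate number as a block, 77 genes were called in Rin recovery, 77 in Rin stress, 15 in Rin recovery against stress, 76 in Mock recovery, 69 in Mock stress and 11 in Mock recovery against stress, and 0 in each other comparison. These block counts too are given without their share over all genes. The libraries were not taken as paired, since same-number libraries did not deviate together over all genes by the limit used, although rin itself was highest in replicate 1 and lowest in replicate 3 in each Rin group.

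Of 1268 alternative values for single named genes, 1219 kept direction and side of the threshold, 30 lost the call, 6 gained it and 13 changed sign. The sign changes were in differences that were not called. With total gene counts only, the log2 change in Rin recovery was -0.21 for CG13482 and -0.22 for CG17570. With 1 library left out, it ran from -0.082 to 0.23 for CG13482 and from -0.10 to 0.29 for CG17570 in Rin recovery, from -0.52 to 0.13 for CG12541 in Mock stress, and from -0.22 to 0.27 for CG13482 and from -0.18 to 0.014 for CG9686 in Rin stress. A fit of only the groups compared gave 0.0054 for CG13482 in Rin stress. Depth limits the rest: 184 of the 276 genes were too low to test in the RNAi fit and all but 46 in the Click-iT fit.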
